A study of Mus musculus with 4 samples.

Results

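Chemokines and their receptors were examined in mouse colon adenoma organoids, 3D cultures of tumour epithelium. The members were the genes whose annotated symbol was Cxcl, Ccl, Cxcr or Ccr followed by digits and at most 1 letter, together with Cx3cl1, Cx3cr1 and Xcl1. There were 47 such genes among the 17097 genes named on the arrays, and each was represented by the probe set with its highest mean over the 4 arrays. RNA from each culture went onto 1 Affymetrix array, and values are log2 expression after robust multi-array averaging (RMA). The 2 arrays labelled Gata6 null/Apc null came from organoids of VillinCreERT2 mice with floxed alleles of both Gata6 and Apc. The 2 arrays labelled Apc null came from organoids with VillinCreERT2, floxed Apc and wild-type Gata6 alleles. The Villin promoter drives this inducible Cre recombinase in intestinal epithelium. By the labels both groups carry the Apc deletion, and no group with intact Apc was included. Both groups were on a C57BL/6 background and grew for 7 days in medium with 50 ng/ml EGF and no Wnt ligand named in the protocol. The age of the mice is not given in the labels. The arrays of each group were split over batches A and B, and the labels do not say what a batch was. The series asks which genes GATA6, a transcription factor of the GATA family active in gut endoderm, controls in adenoma cells.

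The Gata6 probe set of highest mean, 1 of 2 for this gene, read against the knockout label. In batch A and then batch B, the order used for each pair of values below, Gata6 read 9.37 and 9.40 on arrays labelled Gata6 null/Apc null, against 8.89 and 8.61 in those labelled Apc null. The groups did not overlap, and the log2 difference of 0.64 passed as higher with the batch as a block (limma adjusted p = 0.0392, and 0.418 without it). Whether the probe set lies in the floxed region is unknown, so it does not check the deletion, and every direction below rests on the labels. Apc read 8.34 and 8.14 on arrays labelled Gata6 null/Apc null, against 8.35 and 8.34 in those labelled Apc null, and with no array of intact Apc these values do not check its deletion either. Array medians lay between 4.91 and 5.04, and arrays correlated at 0.963 to 0.979 across probe sets. All 12 intestinal epithelial markers, Epcam, Cdh1 and the keratins Krt8, Krt18 and Krt19 among them, were above the filter level of 4.45 defined below.

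Chemokines are small secreted proteins that bind receptors coupled to G proteins and guide the movement of leukocytes. They are divided by the spacing of their first cysteines into CXC, CC, XC and CX3C families, and most are soluble, while CXCL16 and CX3CL1 are made as transmembrane proteins that proteases can release. In the gut the epithelium makes several of them, among them CCL25 and CCL28, which draw lymphocytes to the mucosa, and CCL20, which draws cells to lymphoid follicles. The neutrophil attractants of the CXC family, such as CXCL1, CXCL2 and CXCL5, are made by epithelium and other cells in injury or inflammation. The receptors are carried mostly by leukocytes.

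Of the 47 members, 24 had a mean at or above 4.45 log2 units, the 40th percentile of all probe sets, and were tested. The other 23 lay under that level and are called dim here. The 24 were 51.1% of the members, while 69.5% of all named genes passed the same level. By role, 6 of 12 CXC ligands, 15 of 20 CC ligands, 1 of 2 CX3C or XC ligands and 2 of 13 receptors passed. On all 4 arrays 17 members were above the level, and 21 were under it on all 4. No member passed through 1 group alone, since each of the 24 had a mean above 4.45 in both groups. The members nearest the level were Ccl22 and Cxcl1, both with a mean of 4.53, on its upper side, and Cxcl17 at 4.37 and Ccl3 at 4.31 on its lower side. The array gives no call of presence, so a dim member may be absent or expressed at a low level. A mean above the level is no call of presence either. The lymphocyte markers Cd4, Cd8a and Cd79a also passed it, with means of 4.96, 4.78 and 4.94 over the 4 arrays.

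**Figure D1:**
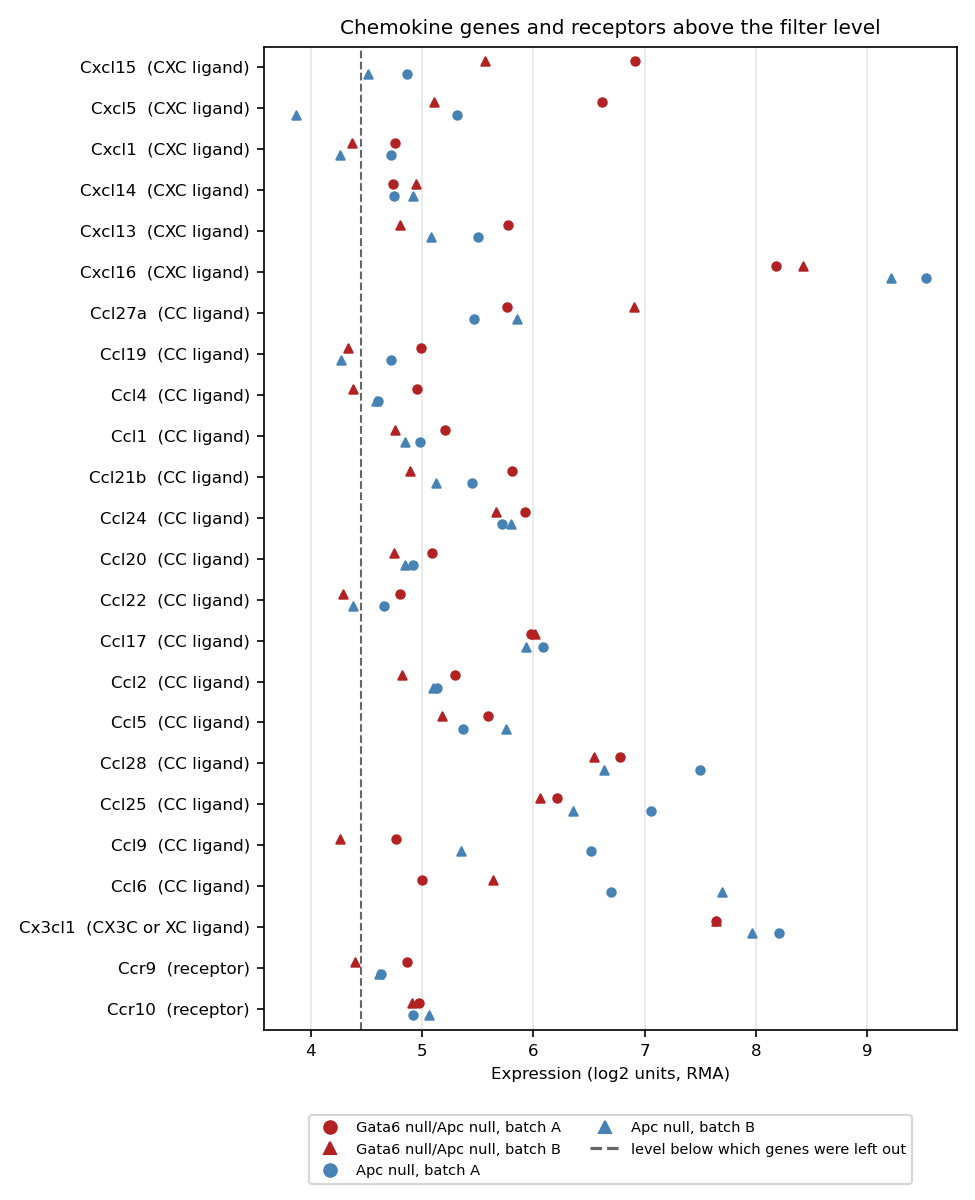
Expression of the 24 members above the filter level, in log2 units, with 1 point per array (circles batch A, triangles batch B) and genes grouped by role. The arrays labelled Gata6 null/Apc null lie to the right of those labelled Apc null for Cxcl15, and to the left for Cxcl16, Ccl25, Ccl9, Ccl6 and Cx3cl1. The dashed line is the level of 4.45.

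No member differed between the genotypes at an adjusted p of 0.05 in limma without a batch term, where 0.648% of the 11874 genes tested passed. At an unadjusted p under 0.05 in the same fit there were 4 members, Cxcl16, Ccl6, Cxcl15 and Ccl9, against 7.97% of all genes. With the batch as a block, which compares the arrays within each batch, 5 members passed, against 6.88% of all genes. Cxcl5 and Cxcl15 were higher and Ccl6, Ccl9 and Cxcl16 lower on arrays labelled Gata6 null/Apc null. For the same 5, and no other tested member, the measured log2 difference was at least 1 in size. That size was reached by 5.10% of all genes tested, and for Cxcl5 it rests on an array under the filter level. The other 19 members had smaller differences, and 15 of the 24 had an absolute difference under 0.2, as did 59.0% of all genes tested. The median difference of the 24 members was 0.01, against -0.03 over all genes tested. Without overlap between the groups, 1 member was higher and 5 were lower, where 14.7% and 17.3% of all genes did so. With 2 arrays a group, and nothing in the labels on whether the cultures had different mice as their source, p-values here measure only the spread between these arrays. The block fit has 1 residual degree of freedom, and its calls rest on the moderation across genes.

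**Figure D2:**
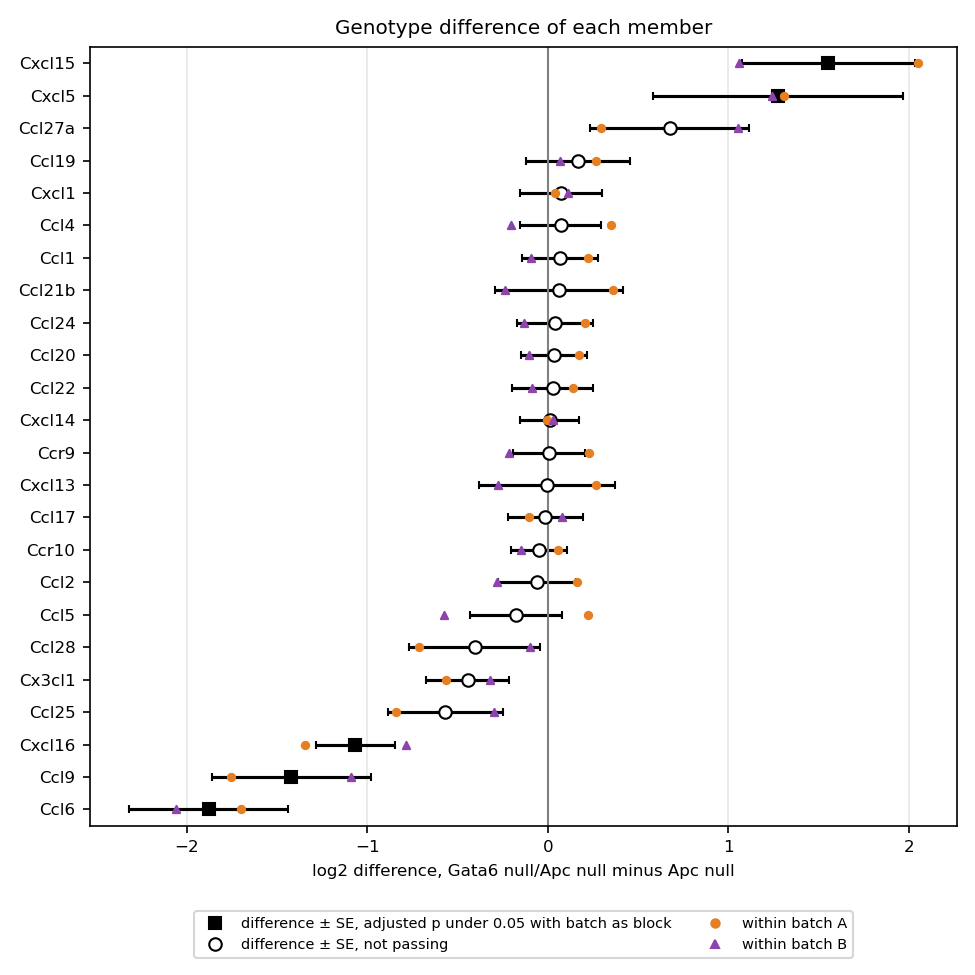
Log2 difference of each tested member, arrays labelled Gata6 null/Apc null minus those labelled Apc null, with the standard error of the fit without a batch term as bars and the difference within each batch as coloured points. Filled squares mark the 5 members that passed with the batch as a block, which lie at 1.27 and above or at -1.07 and below, and both of their within-batch points lie on the same side of 0.

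The largest decreases were those of Ccl6 and Ccl9, CC ligands of rodents that attract myeloid cells through the receptor Ccr1. Ccl6 read 5.00 and 5.64 on arrays labelled Gata6 null/Apc null, against 6.70 and 7.70 in those labelled Apc null. The groups did not overlap, and under each label the batch B array was the higher. Its mean was 5.32 ± 0.45 on arrays labelled Gata6 null/Apc null and 7.20 ± 0.71 on those labelled Apc null (SD, 2 arrays each), which is 3.68-fold lower. The log2 difference was -1.88 (SE 0.44, limma adjusted p = 0.272), and with the batch as a block its SE was 0.20 and its adjusted p 0.00515. Within batch A it was -1.70, and within batch B -2.06.

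Ccl9 read 4.77 and 4.27 on arrays labelled Gata6 null/Apc null, against 6.52 and 5.35 in those labelled Apc null. Again the groups did not overlap, but here the batch A array was the higher under each label, the opposite order to Ccl6. Ccl9 was 2.68-fold lower, with a log2 difference of -1.42 (SE 0.44, limma adjusted p = 0.443, and 0.0163 with the batch as a block), which was -1.75 within batch A and -1.09 within batch B. The array labelled Gata6 null/Apc null of batch B was under the filter level, so the size of the decrease there depends on the floor of the array. With that array set at the filter level the difference was -0.90 within batch B and -1.33 over both batches. Leaving out the batch A array labelled Apc null gave a difference of -0.84. The other Ccl9 probe set was dim on all arrays, between 3.31 and 3.95, and differed by -0.36.

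Ccl6 and Ccl9 are next to each other on chromosome 11 in the order of protein-coding genes of the GRCm38.p6 assembly, in the row Ccl5, Ccl9, Ccl6, Ccl3 and Ccl4. Of their neighbours in the row, Ccl5 and Ccl4 were tested, and neither passed either fit. Ccl5, a ligand of effector T cells, read 5.59 and 5.18 on arrays labelled Gata6 null/Apc null, against 5.37 and 5.75 in those labelled Apc null, and differed by -0.18 (SE 0.25, limma adjusted p = 1.00). Ccl4, a macrophage inflammatory protein, differed by 0.07 (SE 0.22, limma adjusted p = 1.00), and Ccl3, of the same kind, was dim, at 4.57 and 4.15 on arrays labelled Gata6 null/Apc null, against 4.29 and 4.23 in those labelled Apc null. Differences between genes of the row were not tested.

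Because both neighbours passed as lower with the block, the 250 bases before the start of each are shown, from RefSeq in GRCm38.p6, both on the minus strand, at chr11:83593088-83593337 for Ccl6 and chr11:83578637-83578886 for Ccl9. Capitals mark runs of 10 or more bases that occur in both windows.
Ccl6: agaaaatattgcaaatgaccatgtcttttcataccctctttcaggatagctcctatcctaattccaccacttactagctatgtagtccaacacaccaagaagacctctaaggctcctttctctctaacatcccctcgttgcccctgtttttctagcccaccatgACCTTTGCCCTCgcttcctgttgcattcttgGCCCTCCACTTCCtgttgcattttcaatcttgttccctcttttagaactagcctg
Ccl9: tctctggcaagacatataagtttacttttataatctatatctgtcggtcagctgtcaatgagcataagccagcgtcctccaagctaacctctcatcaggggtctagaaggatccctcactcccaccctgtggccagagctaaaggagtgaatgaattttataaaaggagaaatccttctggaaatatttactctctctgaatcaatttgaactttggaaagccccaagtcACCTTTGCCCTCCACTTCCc
The Ccl6 window holds 2 such runs, of 12 and 13 bases, which in the Ccl9 window overlap to form 1 run of 19 bases. The longest run common to both windows was 13 bases. The 35 members with a RefSeq promoter give 595 pairs, with the first listed window of each member. Of these, 2 pairs shared a longer run, and the median over the other pairs was 8 bases. The aligned windows of Ccl6 and Ccl9 were 54.0% identical, against a median of 51.6% over the other pairs, of which 69 were more alike. The Ccl9 window also holds TATAAA, read on the gene's strand, the AP-1 motif TGANTCA and the NF-kB consensus, both read on either strand, and the Ccl6 window holds none of these. TATAAA occurs in 7.59% of all 32841 RefSeq windows of this length, TGANTCA in 6.75% and the NF-kB consensus in 3.9%. The GATA motif, searched as GATAA on either strand, occurs in 22.6% of all windows and in neither of these. The TCF/LEF motif CTTTGAT, in 3.21% of all windows, is also in neither.

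**Figure D3:**
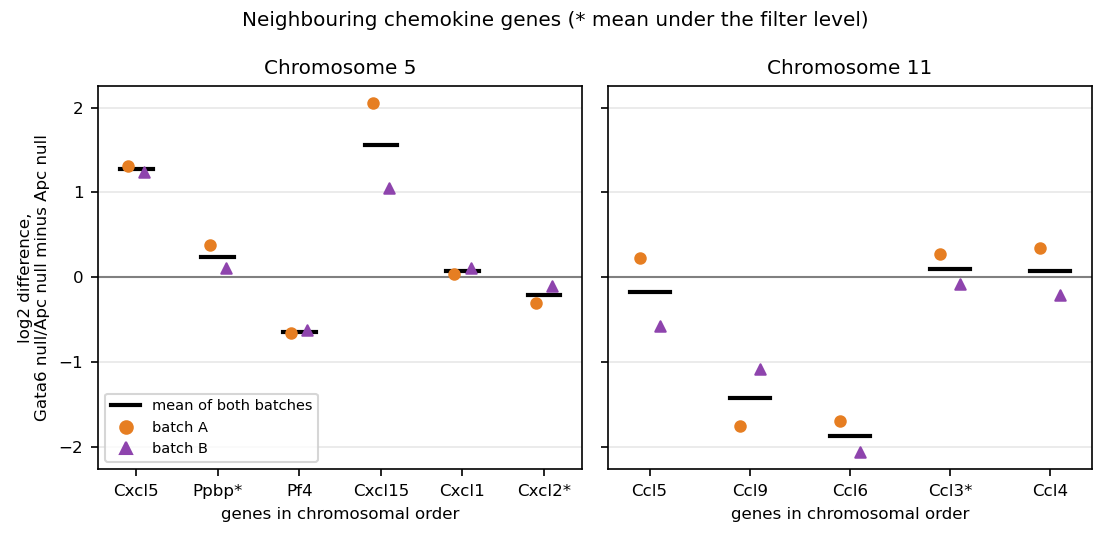
Log2 difference of neighbouring chemokine genes in chromosomal order on chromosomes 5 and 11, arrays labelled Gata6 null/Apc null minus those labelled Apc null, with black bars for the mean of both batches. Cxcl5 and Cxcl15 lie above 1 in both batches and Ccl9 and Ccl6 below -1, while the means of the genes between and beside them lie between -0.64 and 0.24.

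Cxcl16 and Cx3cl1, the chemokines with a membrane anchor, both had their lower values on arrays labelled Gata6 null/Apc null, but only Cxcl16 passed, with the block. Cxcl16, the ligand of Cxcr6, read 8.18 and 8.42 on arrays labelled Gata6 null/Apc null, against 9.52 and 9.21 in those labelled Apc null. The groups did not overlap. The mean was 8.30 ± 0.18 on arrays labelled Gata6 null/Apc null and 9.37 ± 0.22 on those labelled Apc null (SD, 2 arrays each). Cxcl16 was 2.09-fold lower, with a log2 difference of -1.07 (SE 0.22, limma adjusted p = 0.208, and 0.0178 with the batch as a block). Its other probe set, whose suffix marks possible cross-matches, read 7.00 and 7.34 on arrays labelled Gata6 null/Apc null, against 8.55 and 8.03 in those labelled Apc null, a difference of -1.12. The 2 probe sets of Cxcl16 thus gave nearly the same difference.

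Cx3cl1, or fractalkine, which binds Cx3cr1 on monocytes and other leukocytes, read 7.64 and 7.64 on arrays labelled Gata6 null/Apc null, against 8.21 and 7.96 in those labelled Apc null. The groups did not overlap, but the log2 difference of -0.44 (SE 0.23) did not pass (limma adjusted p = 0.845, and 0.180 with the batch as a block). Its other probe set differed by -0.32 and had overlapping groups. The proteases that release both ligands from the membrane differed by -0.10 (SE 0.18) for Adam17 and 0.07 (SE 0.15) for Adam10, neither of which passed (limma adjusted p = 1.00 for each).

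Cxcl15 and Cxcl5 were the members that passed as higher with the block. Cxcl15, known in the mouse as lungkine and as a neutrophil attractant of mucosal epithelium, read 6.91 and 5.57 on arrays labelled Gata6 null/Apc null, against 4.86 and 4.51 in those labelled Apc null. The groups did not overlap, and batch B minus batch A was -1.34 under the label Gata6 null/Apc null and -0.35 under Apc null. Cxcl15 was 2.93-fold higher, with a log2 difference of 1.55 (SE 0.48, limma adjusted p = 0.440, and 0.0244 with the batch as a block), which was 2.05 within batch A and 1.06 within batch B. The other probe set, at 6.48 and 5.24 on arrays labelled Gata6 null/Apc null, against 4.65 and 4.73 in those labelled Apc null, differed by 1.17. Without the array labelled Gata6 null/Apc null of batch A the Cxcl15 difference was 0.88.

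Cxcl5, a neutrophil attractant that binds Cxcr2, read 6.62 and 5.11 on arrays labelled Gata6 null/Apc null, against 5.31 and 3.87 in those labelled Apc null. The groups overlapped, and batch B minus batch A was -1.51 under the label Gata6 null/Apc null and -1.44 under Apc null. Within batch A the difference was 1.31. The log2 difference of 1.27 had an SE of 0.69 and a limma adjusted p of 0.884, and with the batch as a block an SE of 0.16 and an adjusted p of 0.00939. In batch B the measured difference was 1.24, but the Apc null array there was under the filter level, so its size, and with it the block fit, depends on the floor of the array. With that array set at the filter level the batch B difference was 0.66, and the difference over both batches was 0.98. Leaving out 1 array unbalances the batches, and the difference then ran from 0.52 to 2.03, lowest without the array labelled Gata6 null/Apc null of batch A.

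Both genes lie in 1 row on chromosome 5, in the order Cxcl5, Ppbp, Pf4, Cxcl3, Cxcl15, Cxcl1 and Cxcl2, of which Cxcl3 was not analysed here. Of the genes between and beside them, Pf4 and Cxcl1 were tested, and neither passed either fit. Pf4, or platelet factor 4, read 4.60 and 4.72 on arrays labelled Gata6 null/Apc null, against 5.26 and 5.34 in those labelled Apc null. Its groups did not overlap, and its difference of -0.64 (SE 0.15) did not pass (limma adjusted p = 0.284, and 0.0700 with the batch as a block). Cxcl1, which also binds Cxcr2, read 4.76 and 4.37 on arrays labelled Gata6 null/Apc null, against 4.72 and 4.26 in those labelled Apc null, and differed by 0.08 (SE 0.23, limma adjusted p = 1.00). Cxcl2 was dim, between 3.98 and 4.29 on all arrays, as was Ppbp.

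No window was available here for Cxcl5 and Cxcl16, so neither was searched for motifs. Cxcl15 passed with the block, while of its neighbours Cxcl1 did not and Cxcl2 was dim. The upstream windows of Cxcl15, Cxcl1 and Cxcl2 are therefore shown. All 3 are from RefSeq in GRCm38.p6 on the plus strand, at chr5:90794284-90794533 for Cxcl15, chr5:90890995-90891244 for Cxcl1 and chr5:90903649-90903898 for Cxcl2. Capitals mark matches to any of the motifs named above.
Cxcl15: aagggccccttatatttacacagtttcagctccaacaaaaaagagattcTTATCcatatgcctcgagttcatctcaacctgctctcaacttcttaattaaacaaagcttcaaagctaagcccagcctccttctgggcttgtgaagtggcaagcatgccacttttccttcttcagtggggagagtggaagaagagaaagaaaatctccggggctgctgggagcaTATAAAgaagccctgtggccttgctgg
Cxcl1: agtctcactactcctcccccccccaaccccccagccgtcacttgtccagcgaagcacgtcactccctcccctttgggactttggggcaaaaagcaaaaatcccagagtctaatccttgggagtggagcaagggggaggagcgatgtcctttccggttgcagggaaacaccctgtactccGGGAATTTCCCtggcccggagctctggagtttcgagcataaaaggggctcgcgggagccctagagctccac
Cxcl2: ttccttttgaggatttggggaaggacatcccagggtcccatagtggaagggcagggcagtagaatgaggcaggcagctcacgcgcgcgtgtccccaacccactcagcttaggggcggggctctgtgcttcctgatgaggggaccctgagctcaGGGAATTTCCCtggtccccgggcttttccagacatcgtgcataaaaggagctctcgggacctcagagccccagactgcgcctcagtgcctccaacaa
The capitals in Cxcl15 are GATAA on the minus strand, and TATAAA, which ends 22 bases before the start. The capitals in Cxcl1 and Cxcl2 are the NF-kB consensus, which matches at 2 overlapping positions in each of these windows and at none in the Cxcl15 window. Over all 39 windows of the 35 members matched, 7 held the NF-kB consensus, those of Ccl20, Ccl9, Ccr3, Ccr6, Cxcl1, Cxcl10 and Cxcl2. Of all RefSeq windows 3.9% held it. The GATA motif was in 9 of the 39 windows, against 22.6% of all windows. Those 9 were of Ccl1, Ccl17, Ccl27a, Ccr2, Ccr3, Ccr6, Ccr8, Cxcl10 and Cxcl15. TGANTCA was in 5, against 6.75% of all windows. TATAAA was in 8, those of Ccl8, Ccl9, Ccl12, Ccl25, Cx3cl1, Cxcl9, Cxcl13 and Cxcl15, against 7.59% of all windows. CTTTGAT was in 1, that of Cxcl12, against 3.21% of all windows.

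The CC ligands known from mucosal epithelium did not pass by either fit. Ccl25, the ligand of Ccr9 that draws lymphocytes to the gut, read 6.21 and 6.06 on arrays labelled Gata6 null/Apc null, against 7.06 and 6.35 in those labelled Apc null. The groups did not overlap, and the difference of -0.57 (SE 0.32, limma adjusted p = 0.906, and 0.214 with the batch as a block) was -0.84 within batch A and -0.30 within batch B. Ccl28, the mucosal ligand of Ccr10, read 6.78 and 6.54 on arrays labelled Gata6 null/Apc null, against 7.50 and 6.64 in those labelled Apc null. The Apc null array of batch A was the highest, as it was at each of the 3 Ccl28 probe sets. At another of these the values were 4.80 and 4.64 on arrays labelled Gata6 null/Apc null, against 5.92 and 4.73 in those labelled Apc null. The Ccl28 difference was -0.41 (SE 0.37, limma adjusted p = 1.00) with all arrays and 0.02 without that array.

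Ccl20, which is induced in epithelium by NF-kB and binds Ccr6, read 5.09 and 4.75 on arrays labelled Gata6 null/Apc null, against 4.92 and 4.85 in those labelled Apc null, and differed by 0.03 (SE 0.18, limma adjusted p = 1.00). Ccl27a, a ligand of Ccr10 known from skin, differed by 0.67 (SE 0.44, limma adjusted p = 0.990) through the array labelled Gata6 null/Apc null of batch B, which read 6.90 against 5.76 in batch A of the same label and 5.46 and 5.85 in those labelled Apc null. The suffix of that probe set marks possible cross-matches, and the mouse genome holds the near-identical gene Ccl27b, so the value is uncertain as to gene. At the Ccl27a probe set without that mark the difference was 0.09.

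None of the other tested ligands passed either fit. They were the lymphoid tissue ligands Ccl19, Ccl21b and Cxcl13, the T cell attractants Ccl17 and Ccl22, the monocyte attractant Ccl2, the eosinophil attractant Ccl24, and Ccl1 and Cxcl14. Their differences lay between -0.06 for Ccl2 and 0.17 for Ccl19. Ccl21b was read by such a probe set too, and its near-identical copies cannot be told apart. The ligands induced by interferon, Cxcl9, Cxcl10 and Cxcl11, were all dim, between 3.33 and 3.92 on all arrays. Cxcl10 read 3.61 and 3.52 on arrays labelled Gata6 null/Apc null, against 3.83 and 3.92 in those labelled Apc null, and its difference of -0.31 was the largest of the dim members. Cxcl12, a stromal ligand that guides leukocytes and progenitors, was dim too, at 4.19 and 3.82 on arrays labelled Gata6 null/Apc null, against 4.20 and 4.17 in those labelled Apc null. The remaining dim ligands were Cxcl2, Cxcl17, Ccl3, Ccl7, Ccl8, Ccl11, Ccl12 and Xcl1.

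The receptors were dim with 2 exceptions. Ccr9, the receptor of Ccl25, read 4.86 and 4.40 on arrays labelled Gata6 null/Apc null, against 4.63 and 4.61 in those labelled Apc null, and differed by 0.01 (SE 0.20, limma adjusted p = 1.00). Only this probe set of Ccr9 passed the filter level, and its others were dim, with means of 4.09, 3.86 and 3.50. Ccr10 read 4.98 and 4.91 on arrays labelled Gata6 null/Apc null, against 4.92 and 5.06 in those labelled Apc null, and differed by -0.05 (SE 0.15, limma adjusted p = 1.00). The groups overlapped for both. The other 11 receptors, Ccr1, Ccr2, Ccr3, Ccr4, Ccr6, Ccr8, Cx3cr1, Cxcr2, Cxcr3, Cxcr5 and Cxcr6, read between 3.16 and 4.42 over all arrays, and their differences were at most 0.14 in size. Thus the receptors of the 5 ligands that passed with the block, as far as these are established, were dim in both groups. For Ccr1, which binds Ccl6 and Ccl9, the values were 3.37 and 3.16 on arrays labelled Gata6 null/Apc null, against 3.28 and 3.26 in those labelled Apc null. For Cxcr2, which binds Cxcl5, they were 3.61 and 3.54 on arrays labelled Gata6 null/Apc null, against 3.61 and 3.48 in those labelled Apc null. For Cxcr6, which binds Cxcl16, they were 4.14 and 4.15 on arrays labelled Gata6 null/Apc null, against 4.05 and 4.32 in those labelled Apc null.

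The atypical receptors bind chemokines without coupling to G proteins and take them up. Of 6 atypical or related receptor genes on the array, 2 were tested, Ackr3 and Ackr4. Ackr3 is a scavenger of CXCL12 and CXCL11 formerly named Cxcr7. Ackr3 read 7.38 and 7.66 on arrays labelled Gata6 null/Apc null, against 3.88 and 4.39 in those labelled Apc null. Both Apc null arrays were under the filter level, so it entered the test only through the group where it was high, and its call is given as a description. With the Apc null arrays set at the filter level it was at least 8.38-fold higher. The measured means were 7.52 on arrays labelled Gata6 null/Apc null and 4.14 on those labelled Apc null (limma adjusted p = 0.0253, and 0.000564 with the batch as a block, where 0.648% of all genes passed without the block and 6.88% with it). Leaving out the batch A array labelled Apc null gave an adjusted p of 0.0790. It rests on 1 probe set, with a suffix for possible cross-matches. Its ligand genes Cxcl12 and Cxcl11 were dim, as given above. Ackr4, which takes up CCL19, CCL21 and CCL25, differed by -0.28 (SE 0.18, limma adjusted p = 0.997), and Ackr2, Ccrl2, Cmklr1 and Xcr1 were dim.

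The members were also compared between the batches. Of the 24 tested, 16 were higher in batch A and 3 in batch B in both genotypes. No share over all genes is given beside these counts, so they are not read as a trait of the members. Over all 11874 genes tested, the batch differences of both genotypes correlated at 0.675. The batch term passed for 3 members, against 16.6% of all genes. These were Cxcl5 (limma adjusted p = 0.0115 with genotype in the fit), Ccl6 (0.0412) and Ccl9 (0.0474). Batch B minus batch A for Ccl6 was 0.64 under the label Gata6 null/Apc null and 1.00 under Apc null, and for Ccl9 it was -0.50 under Gata6 null/Apc null and -1.17 under Apc null. Both neighbours thus had the same direction by genotype and opposite directions by batch. The genotype difference had the same sign in both batches for 11 of the 24 members, against 63.4% of all genes.

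Genes of the chemokine pathway outside the ligands and receptors were read from lists chosen with results of these data known. Among genes that carry the signal of chemokine receptors, none of 20 tested passed without the batch term, and with it 1 was higher and 1 lower. Gnai1, an inhibitory G protein subunit, read 10.04 and 9.55 on arrays labelled Gata6 null/Apc null, against 8.97 and 8.53 in those labelled Apc null, a difference of 1.05 (limma adjusted p = 0.00433 with the block). Ptk2b, a tyrosine kinase activated by calcium, differed by -0.98 (limma adjusted p = 0.0248 with the block). The median of the 20 was -0.11.

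Of 18 tested genes of the NF-kB pathway and its targets, which induce many chemokines, none passed without the batch term and 1 was higher with it. That gene was Cebpd, a transcription factor of the acute phase, at 7.53 and 8.07 on arrays labelled Gata6 null/Apc null, against 6.60 and 5.89 in those labelled Apc null (difference 1.56, limma adjusted p = 0.0396 with the block). The median of the list was -0.13.

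Of 19 tested cytokines and receptors that induce chemokines, none passed without the batch term, and with it 3 were lower and none higher. Il1rn, the antagonist of the interleukin 1 receptor, read 8.27 and 8.18 on arrays labelled Gata6 null/Apc null, against 9.41 and 9.10 in those labelled Apc null, a difference of -1.04 (limma adjusted p = 0.00831 with the block). Ifngr1, a chain of the interferon gamma receptor, differed by -1.30 (limma adjusted p = 0.0277 with the block) and Il33, an alarmin of epithelium, by -0.88 (limma adjusted p = 0.0429 with the block). Leaving out the batch A array labelled Gata6 null/Apc null moved the Ifngr1 difference to -0.82. Il33 was higher in batch B in both genotypes, so its groups overlapped. Its direction turned with 1 array left out, from -1.81 without the batch B array labelled Gata6 null/Apc null to 0.05 without the batch A array of that label. The median of the list was -0.18.

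Of 8 tested proteases and proteoglycans that release, trim or hold chemokines, 2 were lower with the batch as a block and none passed without it. Mmp7, or matrilysin, which releases a syndecan bound by chemokines, differed by -0.78 (limma adjusted p = 0.00688 with the block), and the carboxypeptidase gene Cpd by -0.54 (limma adjusted p = 0.0434 with the block). With 1 array left out the Mmp7 difference ran from -1.20, without the batch A array labelled Apc null, to -0.35, without the batch B array of that label. At the brightest Cpd probe set with no suffix for possible cross-matches the difference was -0.97. The median of the list was -0.17. Over the 4 lists from receptor signalling to proteases the counts with the block can be set beside 3.91% of all genes that were higher and 2.97% that were lower.

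**Figure D4:**
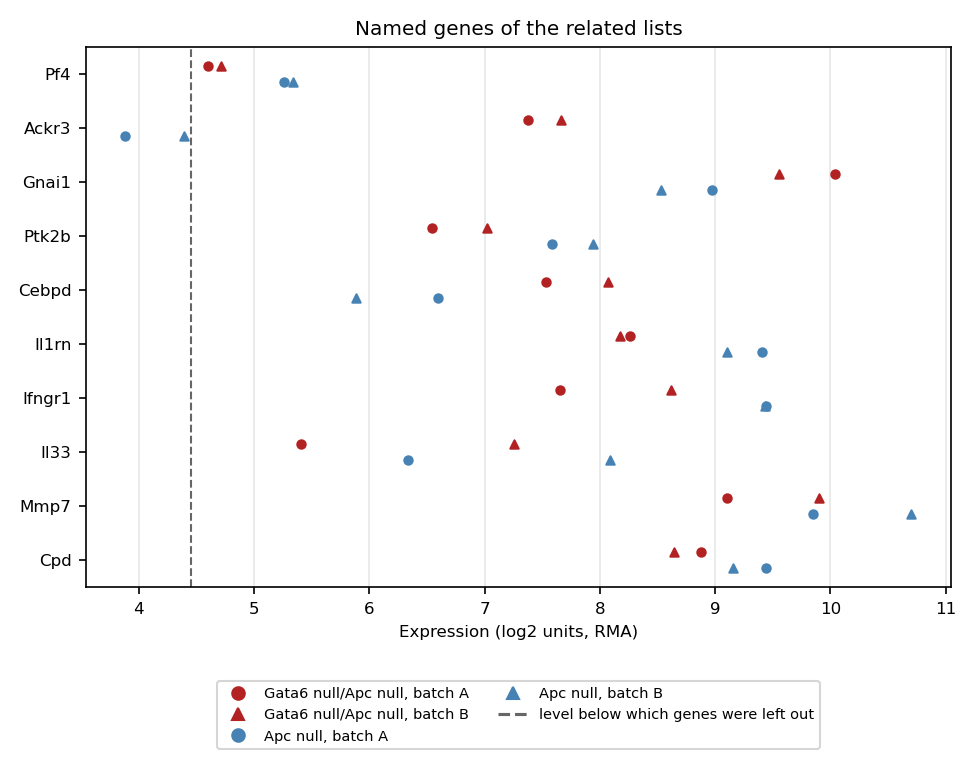
Expression of the named genes of the related lists in log2 units, with 1 point per array. The arrays labelled Gata6 null/Apc null lie to the right of those labelled Apc null for Ackr3, Gnai1 and Cebpd, and to the left for Pf4, Ptk2b, Il1rn, Ifngr1 and Cpd, while Il33 and Mmp7 overlap.

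Since several of the ligands are known from leukocytes, markers of other cell types were read on the same arrays. Of 24 immune markers, 15 were dim, among them Ptprc, which marks all leukocytes, at 3.16 and 3.25 on arrays labelled Gata6 null/Apc null, against 3.07 and 3.12 in those labelled Apc null. The T cell marker Cd3e and the macrophage marker Adgre1 were dim too. Cd68, a lysosomal protein abundant in macrophages, was above the level, at 4.94 and 7.23 on arrays labelled Gata6 null/Apc null, against 5.92 and 7.56 in those labelled Apc null. Like Ccl6 it was higher in batch B under both labels and lower on arrays labelled Gata6 null/Apc null within each batch, with a difference of -0.66 (limma adjusted p = 1.00, and 0.174 with the block). Of the other tested markers of the list, none was higher in batch B under both labels, and only Cd14 was lower within each batch. Among these markers, Csf1r differed by -0.04 and Fcer1g by 0.06. The mean level of the immune list was 4.27 and 4.25 on arrays labelled Gata6 null/Apc null, against 4.35 and 4.38 in those labelled Apc null, and none of its 9 tested members passed either fit. Cd14, the lipopolysaccharide co-receptor, had the largest difference of the list, -0.96 (limma adjusted p = 0.446, and 0.0654 with the block). Of 14 fibroblast markers 9 were dim, and their mean level was 4.64 and 4.57 on arrays labelled Gata6 null/Apc null, against 4.66 and 4.65 in those labelled Apc null. Fbln1, an extracellular matrix protein, stood far above the rest of that list, at 8.80 and 9.62 on arrays labelled Gata6 null/Apc null, against 9.84 and 9.75 in those labelled Apc null, a difference of -0.59 without overlap (limma adjusted p = 0.853, and 0.191 with the block). Of 10 endothelial markers 6 were dim, with a mean level of 4.45 and 4.28 on arrays labelled Gata6 null/Apc null, against 4.47 and 4.40 in those labelled Apc null. None of the 5 fibroblast and 4 endothelial markers tested passed either fit. The 12 epithelial markers had a mean level of 10.15 and 10.16 on arrays labelled Gata6 null/Apc null, against 10.53 and 10.45 in those labelled Apc null. All 12 differences were negative, from -1.57 to -0.01, with a median of -0.23, against -0.03 over all genes tested. Only the largest, that of the intestinal homeobox gene Cdx2 at -1.57, passed as lower with the block (limma adjusted p = 0.00545), as did 2.97% of all genes. In such bulk cultures fewer cells that express a gene and less RNA per cell cannot be told apart. The part of these markers in the chemokine values was not tested.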

How the data were processed

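The authors deposited 1 log2 value per probe set and array, computed with RMA (affy), per the submitters' processing notes, which name no versions. RMA corrects the background, quantile-normalizes the arrays and summarises probes, so shifts of a whole array are removed and low values are compressed. Per the labels' protocols, 25 ng of total RNA was amplified before labelling, which adds noise to dim probe sets. Of 45141 probe sets 104 were controls, and the platform annotation gave 1 gene to 28898. For each of 17097 genes the probe set of highest mean was kept, and 11874 genes at or above the 40th percentile (4.45) were tested. Groups came from the titles.

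The comparison of genotypes used limma (3.58.1, under R 4.3.3): lmFit with genotype alone, then eBayes with trend. Its two-sided p-values were adjusted by Benjamini-Hochberg over the 11874 genes, at a threshold of 0.05. The batch letter pairs 1 array of each genotype by the labels; batch differences in both genotypes correlated at 0.675 across genes. The fit with it as a replicate block was therefore run too. The code was tested on simulated data. The members, lists and named genes were chosen with earlier results of these data known: every tested member, the dim ones by name, and up to 4 genes per related list past either fit, or 2 where none passed. Cd14, Cd68, Fbln1, Cdx2, Adam10, Adam17, Ackr4 and the other marker genes were named after their values were seen. Promoter windows came from RefSeq (GRCm38.p6), with a match for 35 of 47 members. Where a member had several windows, the first listed was used for pairs and printed sequences, and all 39 for motif counts.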

Additional observations from a re-analysis of the deposited data

How the results depend on the processing

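With the batch letter as a replicate block, 5 members passed in place of 0, and over all genes 817 passed in place of 77. None passed in the other 10 of 11 alternatives, which were no filter, a filter at the 60th percentile, the mean of all probe sets, no shared-sequence probe sets, no trend, arrays centred on their medians, and leaving out each of the 4 arrays. Over those 4 leave-one-out fits the count over all genes ran from 33 to 130. Ccl6, Ccl9, Cxcl5, Cxcl15 and Cxcl16 kept their direction in all 51 refits that tested them. For all of these but Cxcl5 the groups did not overlap, so leaving out an array could not turn the sign. The fits with the block, without a filter and without the trend return the same difference by design. The count of refits is therefore no measure of how reliable the directions are. Of the 24 tested members, 16 changed sign under some alternative, and none of these passed any fit. The number of members above the filter level was 37 at the 20th percentile and 8 at the 60th, in place of 24. With 2 arrays a group, the number of arrays limits the precision.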
